A study of Homo sapiens with 20 samples.

Results

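The 10 genes described here encode the cohesin complex and the proteins that load it, release it, hold it on DNA or stop it, and the question was where cohesin and CTCF themselves lay on these genes before and after knockdown of STAG2. Cohesin is a ring of SMC1A, SMC3 and RAD21, to which either STAG1 or STAG2 binds. NIPBL helps to load the ring and drives it along DNA, WAPL releases it, PDS5A and PDS5B act with both, and CTCF is the zinc finger protein at which moving cohesin tends to halt. The members were given by name, by their role in cohesin biology. Every peak that overlapped a gene in the GENCODE annotation of hg19, or the 10 kb on either side of it, was taken as a peak of that gene. The 10 windows covered 1894 kb in all and held 860 of the 1600648 peaks in the 16 lists. Merging peaks that overlapped in any lists gave 113 of the 224475 sites of the whole series, where a site counts if any part of it reaches a window.

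ChIP-seq had been run with antibodies against STAG1, STAG2, SMC1A and CTCF in M14, an established human melanoma line that carries a doxycycline-inducible short hairpin RNA against STAG2. All cells carried the hairpin: WT cells were grown without doxycycline and STAG2 KD cells with it, for 5 d as the labels of the first replicate say, so doxycycline itself cannot be told apart from the loss of STAG2. Each antibody was used once per condition in 2 replicates, giving 16 lists, and 4 input libraries had no list. The replicates differed in chromatin extraction, in size selection (beads in replicate 1 and gel in replicate 2) and in the threshold of the lists, so WT was compared with KD within a replicate. Lists held 58521 to 91582 peaks in replicate 1 and 98453 to 150308 in replicate 2. STAG2 messenger RNA and protein are not measured by these lists, and the STAG2 antibody still gave 58521 and 106203 peaks in the KD cells. A peak's strength is given as its fold enrichment over input and as its percentile by p-value within its own list, where 100 is the strongest peak.

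Sequences are shown first for 9 sites, because they hold the core of the CTCF motif at the centre of their CTCF peaks and were present in most or all lists. The core searched was CCNNNAGNNGGC on either strand within 100 bp of the summit, a short pattern that many CTCF sites do not match. It was found at 8 of the 27 member sites present in all 16 lists, at 3 of the 47 sites in 2 to 15 lists and at 2 of the 39 sites in 1 list. By list, 15.2 to 22.9% of the members' CTCF peaks held it, against 21.2 to 27.2% of all CTCF peaks and 2.18 to 2.23% of the sequence 5 kb away from them. The hg19 sequences below run 5′ to 3′ on the strand that carries the core, and the core is in capitals.
STAG1 promoter (chr3:136471240-136471269, minus strand): gcaccgcggCCAGCAGAGGGCggtccggac
STAG2 promoter (chrX:123094364-123094393, plus strand): ggttcgtggCCGACAGATGGCgcctgcgcg
CTCF promoter (chr16:67596652-67596681, minus strand): atcgtgacaCCTAGAGGCGGCccgcgaaac
SMC3, 10.5 kb upstream (chr10:112316930-112316990, plus strand): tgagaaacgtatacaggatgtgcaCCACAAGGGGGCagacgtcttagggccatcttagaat
NIPBL intron 1 (chr5:36944877-36944937, minus strand): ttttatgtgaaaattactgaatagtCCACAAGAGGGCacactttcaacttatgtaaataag
STAG2, 251.0 kb past the start (chrX:123345341-123345401, plus strand): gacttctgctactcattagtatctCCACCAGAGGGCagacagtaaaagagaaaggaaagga
STAG2, 428.2 kb past the start (chrX:123522587-123522647, plus strand): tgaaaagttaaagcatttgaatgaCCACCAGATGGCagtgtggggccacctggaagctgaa
STAG2, 73.4 kb past the start (chrX:123167806-123167866, minus strand): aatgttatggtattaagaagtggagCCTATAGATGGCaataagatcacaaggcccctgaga
STAG1 intron 28 (chr3:136070901-136070961, plus strand): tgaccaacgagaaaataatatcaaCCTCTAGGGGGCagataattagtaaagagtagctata
The first 7 are sites of all 16 lists, the eighth was in 14 lists, and the last lost its STAG2 peak on knockdown in both replicates. The remaining site of all 16 lists with the core lies in RAD21, whose sequence is not printed.

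Of the 113 sites, 27 were present in all 16 lists and 39 in 1 list. CTCF had a peak at 43 sites in all 4 of its lists and at 34 sites in none. The largest genes held most sites, 34 at STAG2 and 19 at STAG1, followed by 15 at NIPBL, 11 at SMC3 and 9 at PDS5B. RAD21 held 7 sites, CTCF 6, SMC1A 5, PDS5A 4 and WAPL 3. The annotated bounds of STAG2 run 321.2 kb past the end of its main transcript at chrX:123235348. Of its 34 sites, 19 lie in that stretch or beyond, 3 of them present in all 16 lists. The STAG2 window also overlaps the coding genes SH2D1A, TEX13D and TENM1, so a site in it cannot always be given to STAG2 alone. Per 100 kb of window the median member held fewer peaks than the median coding gene in each of the 16 lists, for example 1.85 against 3.18 in the STAG1 list of WT replicate 1 and 3.72 against 7.91 in the SMC1A list of KD replicate 2. Members differed widely, in that SMC1A list from 1.71 at PDS5A to 12.3 at RAD21 and 13.7 at SMC3. Gene length, from 28.8 kb at RAD21 to 462.5 kb at STAG2, was not taken into account.

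**Figure D1:**
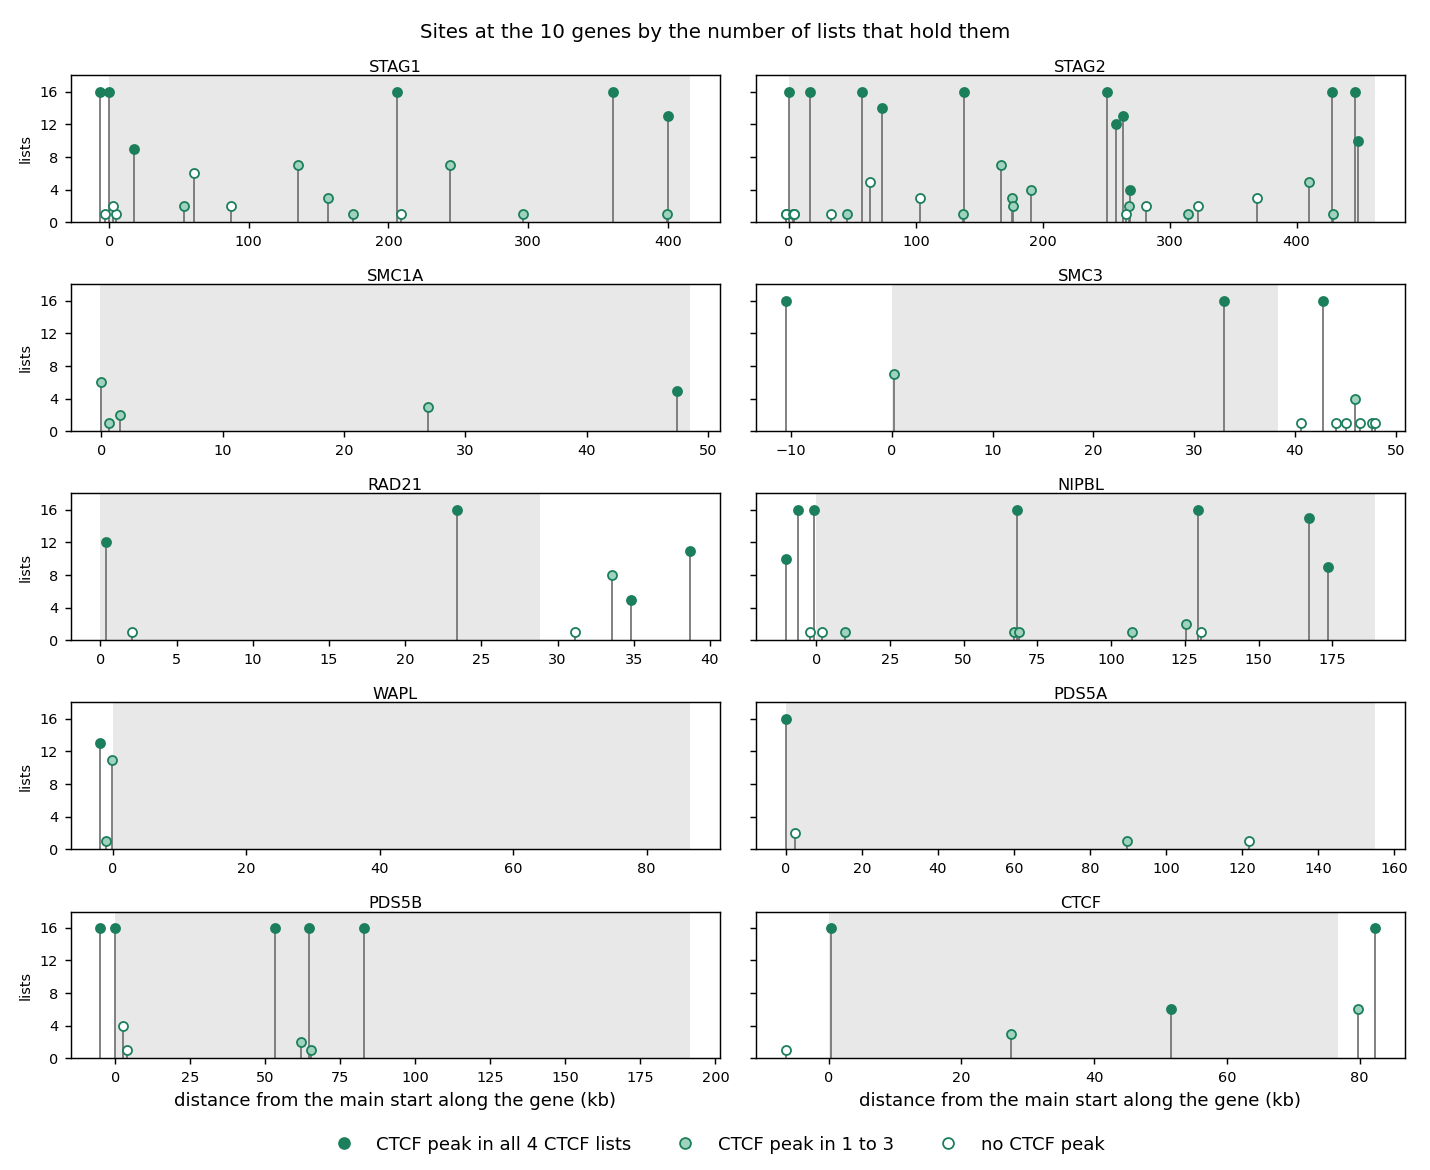
Sites at the 10 genes, with distance from the main start along the gene in kb on the x axis and the number of lists that hold the site on the y axis; grey marks the annotated gene, and the fill of a point shows in how many of the 4 CTCF lists it has a peak. Sites of all 16 lists stand at the starts of STAG1, STAG2, NIPBL, PDS5A, PDS5B and CTCF and inside 7 of the windows away from the start, while SMC1A and WAPL have none.

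The promoters were divided by their presence in the lists. A peak within 1 kb of the main start was present in all 16 lists at 6 of the 10 genes (STAG1, STAG2, NIPBL, PDS5A, PDS5B and CTCF), against 23.1% of the 20136 coding genes. The other 4, which were the 3 genes of the ring (SMC1A, SMC3 and RAD21) and WAPL, had a promoter peak in 6, 7, 12 and 11 lists. Strength overlapped between the groups, with percentiles from 15.7 to 81.4 at NIPBL and from 9.58 to 69.5 at WAPL. The count was also 6 at a stricter threshold of −log10 q of at least 5 and with lists made equal in length, 5 within 500 bp of the start and 7 within 2.5 kb.

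**Figure D2:**
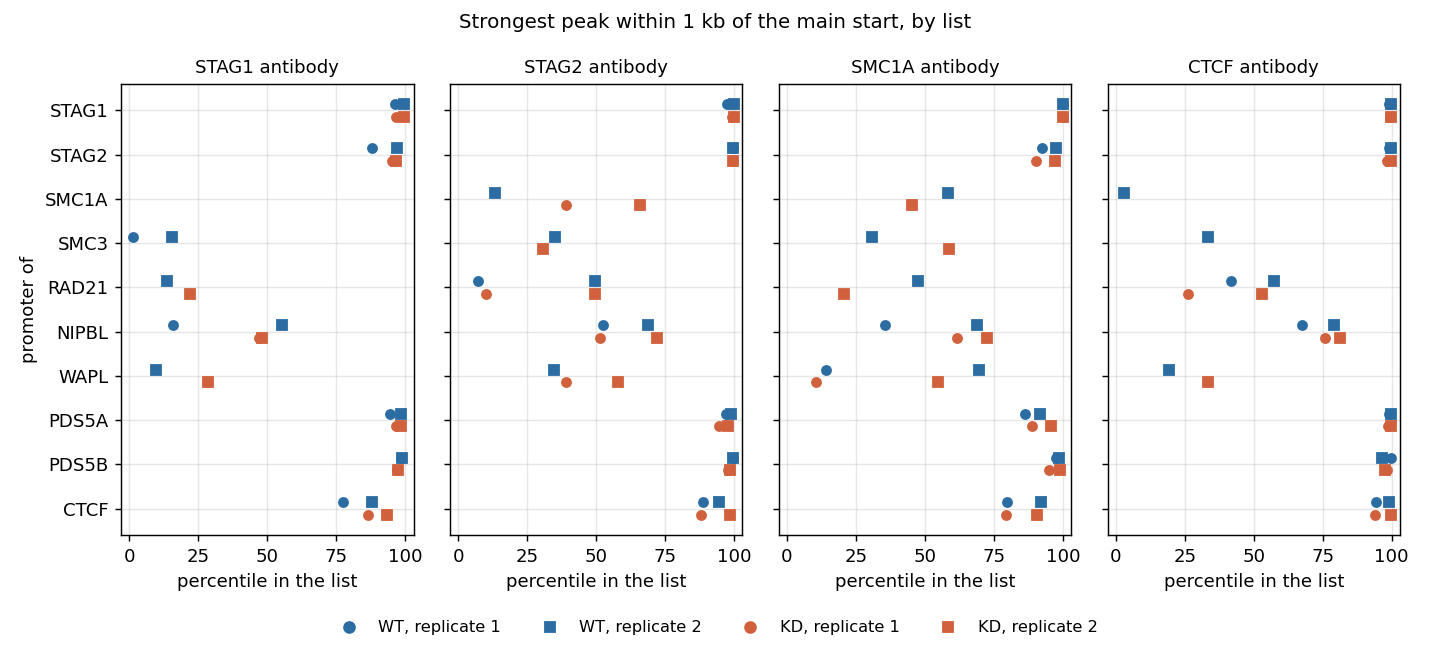
Percentile in its list (x axis) of the strongest peak within 1 kb of the main start of each gene (y axis), in 1 panel per antibody; circles are replicate 1, squares replicate 2, blue WT and orange STAG2 KD, and a list without a peak has no point. STAG1, STAG2, PDS5A and PDS5B lie at 86.1 or above in every list, and SMC1A, SMC3, RAD21 and WAPL lie at 69.5 or below wherever they have a peak.

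Of the STAG subunits, the STAG1 promoter carried some of the strongest peaks of the series. In the SMC1A lists its fold enrichment was 63.3 and 72.6 in WT and KD of replicate 1 and 36.9 and 39.7 in replicate 2, which ranked it 63rd, 36th, 15th and 38th among 82287, 91582, 148396 and 150308 peaks. Its STAG1 percentile was 96.2 and 96.8 in replicate 1 and 99.6 and 99.7 in replicate 2, WT first. With STAG2 antibody the values were 97.3 and 99.3, then 99.85 and 99.89. All 16 summits lay within 43 bp of the main start, at chr3:136471220, near the core printed above.

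At the STAG2 promoter, the promoter of the gene that the hairpin targets, the STAG2 antibody gave a fold enrichment of 69.4 in WT and 63.2 in KD in replicate 1 and of 42.0 and 37.3 in replicate 2. The percentiles were 99.57 and 99.48, then 99.69 and 99.77. The percentiles of WT and KD overlapped, but so near 100 they have little room to move. The STAG2 fold enrichment was lower in KD within both replicates. That of CTCF was lower in both as well, at 112.9 and 87.6, then 65.8 and 63.8, WT first. Those of SMC1A and STAG1 went opposite ways in the replicates. The share of coding promoters with a lower STAG2 fold enrichment was not computed, so whether this fall is unusual was not tested. STAG1 had a percentile of 87.8 in WT and 95.1 in KD in replicate 1 and of 97.1 and 96.5 in replicate 2, which is an increase in the first replicate only (exact permutation test over the 4 lists, two-sided, p = 1). Summits of all antibodies lay from 56 bp before to 21 bp after the start.

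Among the ring genes, SMC1A had no STAG1 peak within 1 kb of its start in any of the 4 STAG1 lists. The start of RIBC1 lies within 1 kb of it, so a peak there cannot be given to either gene. The STAG2 antibody showed no peak at SMC1A in WT replicate 1, a fold enrichment of 7.52 in KD replicate 1, 3.02 in WT replicate 2 and 7.15 in KD replicate 2. In replicate 2, the replicate with a peak in both conditions, the STAG2 percentile was 13.4 in WT and 65.8 in KD. In replicate 1 a peak was called in KD alone, which gives no value to compare.

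The SMC3 promoter had 2 STAG1 peaks, both in WT and both weak, with fold enrichments of 3.74 and 2.90 in replicates 1 and 2 and percentiles of 1.47 and 15.3. The SMC1A antibody gave 30.9 in WT and 58.8 in KD, in replicate 2 alone. At RAD21 the CTCF and STAG2 antibodies had a peak in all 4 lists and the other antibodies in replicate 2 only. CTCF percentiles at RAD21 were 41.6 in WT and 26.3 in KD in replicate 1 and 57.3 and 53.1 in replicate 2, lower in KD in both. The STAG2 percentiles there were 7.31 and 9.92, then 49.6 and 49.6, and the WT and KD peaks of replicate 1 did not overlap.

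NIPBL, the loader, had peaks in all 16 lists that were of middle rank, with summits at −830 to −710 bp from its start. Its SMC1A percentile was 35.7 in WT and 61.4 in KD in replicate 1 and 68.8 and 72.4 in replicate 2, higher in KD in both. CTCF went the same way, from 67.6 to 75.9 and from 79.2 to 81.4. STAG1 rose in percentile from 15.7 to 46.9 in replicate 1 and stood at 55.2 in WT and 48.0 in KD in replicate 2.

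At WAPL, the release factor, the STAG2 antibody could likewise be compared in replicate 2 alone, with percentiles of 34.7 in WT and 58.0 in KD. It gave no peak in WT replicate 1, a fold enrichment of 7.52 in KD replicate 1, 4.01 in WT replicate 2 and 6.82 in KD replicate 2. The SMC1A percentile of the strongest WAPL promoter peak was lower in KD in both replicates, first 10.6 against 14.3 in WT and then 54.9 against 69.5. In replicate 1 the WT and KD peaks did not overlap, so those values belong to different peaks. A second site, with its strongest summit 1.8 kb before the WAPL start, was the strongest of that gene by mean percentile, at 46.2 over 13 lists.

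PDS5B was the member promoter whose STAG1 and STAG2 percentiles stood lower in KD in both replicates with no overlap between the groups. Of all coding promoters, 9.46% were lower in both replicates with STAG1 and 44.3% with STAG2. The share of them without overlap was not computed, so whether PDS5B is unusual was not tested. Its STAG1 and STAG2 fold enrichments, which differ in scale between the replicates, were lower in KD within each replicate and overlapped between the groups. The STAG2 fold enrichment was 68.7 in WT and 46.4 in KD in replicate 1, and 40.3 and 27.8 in replicate 2. The STAG2 percentile was 99.5 and 99.7 in WT and 97.6 and 98.4 in KD, a difference of −1.84 and −1.22 points. STAG1 had 98.6 and 98.7 in WT against 96.9 and 97.4 in KD. The exact permutation test gave p = 0.333 for each, which is the smallest p that 2 lists against 2 allow, so no promoter could pass a threshold of 0.05. Its CTCF percentile was 99.7 and 98.1 in replicate 1 and 96.4 and 97.5 in replicate 2, WT first, so the replicates went opposite ways. The CTCF fold enrichment was lower in KD in both, at 117.1 and 88.6, then 49.4 and 48.1. That of SMC1A was 46.0 and 39.8, then 32.0 and 34.6, opposite ways.

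The PDS5A promoter had peaks at separate points. The strongest STAG1 and STAG2 summits lay 1271 to 1344 bp after the main start in all 8 of their lists, 7 of them in exon 2 and the one at 1271 bp in intron 1, while the strongest SMC1A and CTCF summits lay from 114 bp before to 184 bp after the start. In replicate 1, where the lists of the cohesin antibodies resolved both points, the STAG1 fold enrichment in exon 2 was 56.7 in WT and 70.1 in KD, and that of the peak about 0.25 kb after the start was 36.9 and 55.2. STAG2 showed 60.5 in WT and 47.3 in KD in exon 2, and 37.9 and 38.6 near the start. The SMC1A antibody gave 17.4 and 26.5 in exon 2 and 24.2 and 31.9 near the start. Thus on PDS5A in replicate 1 the fold enrichment of STAG1 was higher in KD at both points, and that of STAG2 was lower in exon 2. In replicate 2 each antibody had 1 wide peak that spanned both points. Of the lists in replicate 2, STAG1 had 33.5 in WT and 38.04 in KD and STAG2 33.7 and 28.8, the same directions as exon 2 in replicate 1. The short CTCF core was absent from the 2 kb around the PDS5A start.

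**Figure D3:**
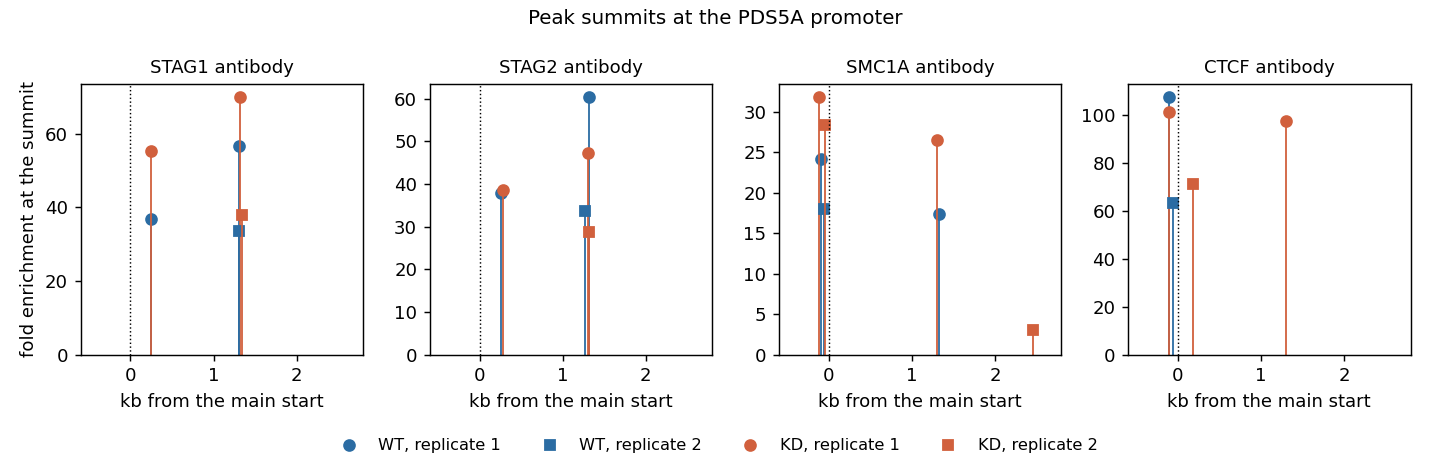
Peak summits at the PDS5A promoter, with distance from the main start in kb on the x axis and fold enrichment at the summit on the y axis, in 1 panel per antibody with its own scale. Each stem is a peak, with circles for replicate 1, squares for replicate 2, blue for WT and orange for STAG2 KD; the highest STAG1 and STAG2 stems stand near 1.3 kb and the highest SMC1A and CTCF stems near the start.

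The promoter of CTCF itself was held in all 16 lists, with summits 290 to 374 bp after its start. The STAG1 percentile was 77.6 in WT and 86.5 in KD in replicate 1 and 88.0 and 93.5 in replicate 2, higher in KD by 8.90 and 5.49 points (exact permutation test, p = 0.667). The CTCF antibody gave 94.4 and 93.8, then 99.1 and 99.8. STAG2 went from 88.7 to 87.9 and from 94.4 to 98.7, opposite ways in the replicates.

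Read over the promoters with a peak in all 4 lists of an antibody, the direction of the change was mixed. The STAG1 percentile was higher in KD in both replicates at 2 of 6 member promoters (STAG1 and CTCF) and lower at 1 (PDS5B), against 54.6% and 9.46% of all coding promoters. STAG2 was higher at 2 of 7 (STAG1 and RAD21) and lower at 2 (PDS5A and PDS5B), against 26.5% and 44.3%. The PDS5A values belong to peaks that reach into the 1 kb but have their summits 1271 to 1312 bp after the start. Within 500 bp of the start the STAG2 counts were 2 higher and 1 lower. The RAD21 difference was 0.02 points in replicate 2, and its WT and KD peaks of replicate 1 did not overlap. For SMC1A, 2 of 7 were higher (NIPBL and PDS5A) and 3 lower (STAG2, WAPL and CTCF), against 34.0% and 33.1%. The WT and KD peaks at WAPL did not overlap in replicate 1 either. With CTCF antibody 2 of 7 were higher (STAG1 and NIPBL) and 2 lower (STAG2 and RAD21), against 28.7% and 35.8%. A percentile also moves with the length of the list, since a shorter list leaves out weak peaks, and with lists of equal length the counts became 1 higher and 1 lower for STAG1, 4 and 2 for STAG2, 2 and 2 for SMC1A and 2 and 0 for CTCF. The median STAG1 difference over member promoters with a peak in both conditions was 4.72 points in replicate 1 and 0.03 in replicate 2, against 11.32 and 1.34 over all coding promoters. The STAG1 percentile averaged 94.1 or more at STAG1, STAG2, PDS5A and PDS5B, which limits any rise there.

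The G and C content within 500 bp of the start ran from 58.3% at RAD21 to 76.6% at CTCF, against a median of 60.6% over coding promoters. RAD21 lay under that median, STAG2 was close to it at 61.0%, and the other 8 were above it. The core of the CTCF motif was present within 1 kb of the start at 6 of them, against 43.0% of coding promoters. Those 6 were STAG1, STAG2, SMC3, RAD21, NIPBL and CTCF. At SMC3, RAD21 and NIPBL the core did not lie within 100 bp of the median CTCF summit of the promoter. SMC3 had a CTCF promoter peak in 1 list. PDS5A and PDS5B, whose CTCF peaks were among the strongest, had no match of this short pattern.

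Away from the promoters, 21 member sites were present in all 16 lists, and 20 of them were not at the start of another coding gene either, of 32481 such sites in the genome. The site left out lies 82.4 kb past the CTCF start, at the start of CARMIL2. Of the 20, 6 lie in the STAG2 window, 4 at PDS5B, 3 each at STAG1, SMC3 and NIPBL and 1 at RAD21. All 20 had a CTCF peak in all 4 CTCF lists, as the choice of sites requires. Introns of main transcripts held 12, the stretch of STAG2 past its main transcript 3 and flanks 5. The flank sites had their strongest summits 6.3 kb before the start of STAG1, 10.5 kb before and 42.8 kb after that of SMC3, 6.1 kb before that of NIPBL and 5.0 kb before that of PDS5B.

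The STAG2 percentile was lower in KD in both replicates at 15 of the 20 sites and higher at 1, against 63.0% and 9.99% of the genome's distal sites of all 16 lists. The median difference was −9.83 points in replicate 1 and −3.38 in replicate 2, against −7.53 and −1.87. STAG1 was higher in both replicates at 7 sites and lower at 4, against 57.6% and 11.2%, with medians of 6.65 and −0.82 points against 6.93 and 1.11. The STAG1 counts at these sites thus lay on the lower side of the background, with replicate 2 centred near 0. SMC1A was higher at 6 sites and lower at 12, against 41.7% and 28.7%, and its median differences of −2.78 and −2.03 points compared with 1.57 and 0.09. CTCF was higher at 4 and lower at 9, against 32.1% and 33.6%, with medians of −1.52 and −2.40 against 0.78 and −0.80.

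**Figure D4:**
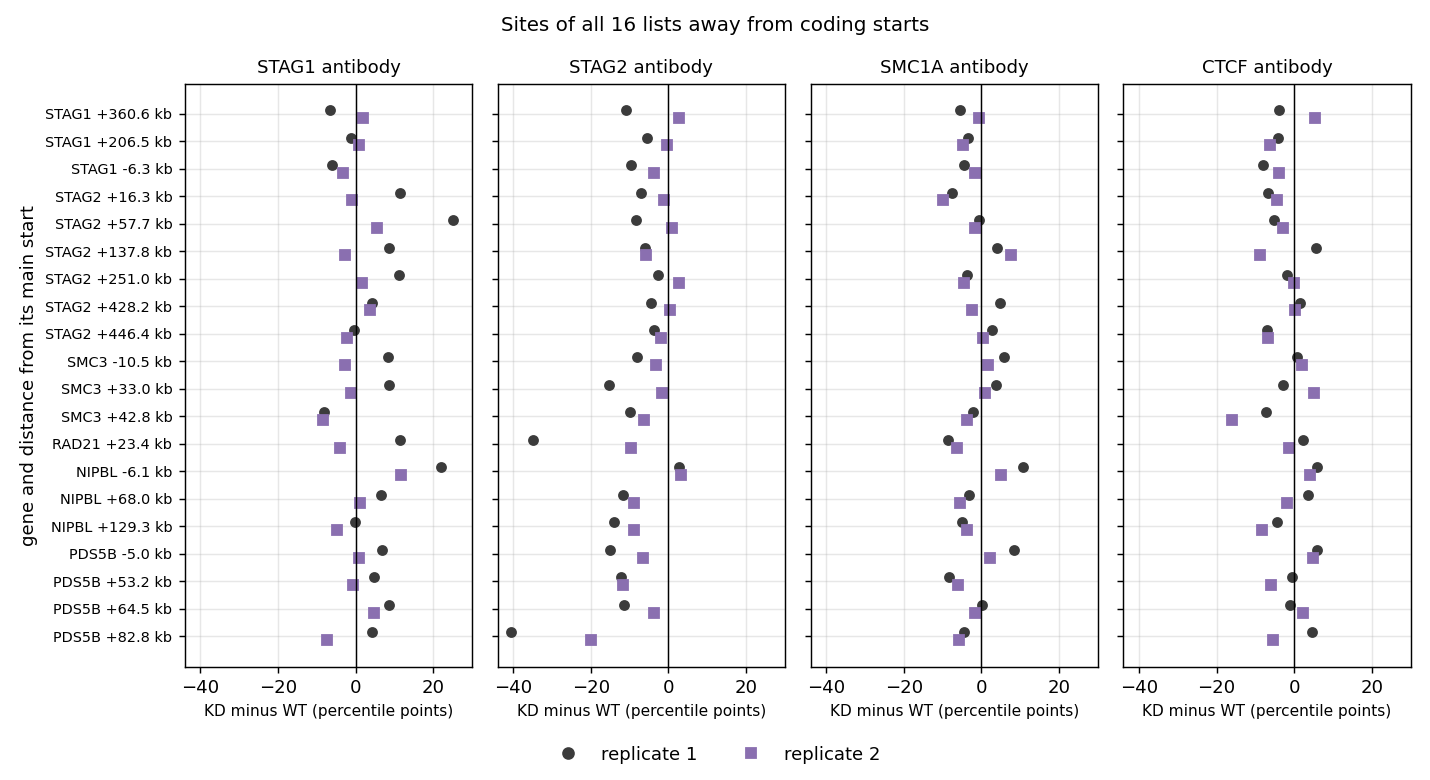
Difference in percentile between STAG2 KD and WT (x axis, in percentile points) at the 20 sites of all 16 lists away from coding starts, each named by its gene and its distance from the main start (y axis), in 1 panel per antibody with circles for replicate 1 and squares for replicate 2. In the STAG2 panel 15 of the 20 sites have both points left of 0, and the site 82.8 kb into PDS5B has the largest fall.

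The largest fall of STAG2 among them was in intron 7 of PDS5B, 82.8 kb past the start at chr13:33242588-33244105. Its STAG2 fold enrichment was 15.9 in WT and 4.80 in KD in replicate 1 and 13.7 and 5.01 in replicate 2, or 67.5 against 26.9 and 78.1 against 58.2 as percentiles. The STAG1 fold enrichment was 17.0 and 15.1, then 12.6 and 5.58, lower in KD in both replicates, although the percentile in replicate 1 was 60.7 in WT and 64.8 in KD. SMC1A fell in fold enrichment as well, from 28.0 to 23.8 and from 17.4 to 10.7. CTCF gave 56.2 and 68.5 in replicate 1 and 49.7 and 34.2 in replicate 2, opposite ways.

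RAD21 held its site of all 16 lists 23.4 kb past the start, near another start of the gene and in intron 11 of the main transcript. The STAG2 percentiles there were 57.8 and 22.8, then 70.5 and 60.8, and those of SMC1A 81.9 and 73.4, then 88.9 and 82.5. In intron 1 of PDS5B, 53.2 kb past the start, STAG2 had 83.2 and 71.0, then 91.8 and 80.1. All 4 antibodies were lower in KD in both replicates at 3 of the 20 sites and higher in both at 1. The matching share over the genome's distal sites was not computed, so whether these counts are unusual was not tested. Downstream of SMC3, 42.8 kb from its start, the first of the 3 had STAG1 at 96.7 and 88.4, then 98.0 and 89.7. Upstream of STAG1, 6.3 kb from its start, the next had SMC1A at 98.8 and 94.5, then 99.3 and 97.6. In intron 16 of NIPBL, 129.3 kb past the start, the last had STAG2 at 73.7 and 59.7, then 83.1 and 74.2, with a STAG1 difference of -0.04 points in replicate 1. The site 6.1 kb upstream of NIPBL was the 1 at which all 4 antibodies were higher in KD in both replicates, with STAG1 at 34.98 and 57.0, then 56.0 and 67.6. It was the 1 site of the 20 with a higher STAG2 percentile in both.

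Peaks that were called in 1 condition and not in the other were weak. Over all antibodies and both replicates, 144 of the 860 member peaks had no partner in the other condition, with a median percentile of 15.7 against 70.0 for the 716 that had one, and 5 of the 144 stood above the middle of their list. A peak without a partner is one that passed the threshold in 1 list and not in the other, which is not a test of a difference in binding. The same percentiles were not computed over all peaks, so the weakness cannot be called particular to these genes.

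STAG2 had 11 of 45 member peaks in WT replicate 1 with no peak in KD, against 32.2% of all its peaks, and 11 of 59 in replicate 2, against 22.1%. In the KD lists 4 of 38 STAG2 peaks had no WT peak, against 6.62%, and 7 of 58, against 12.0%. STAG1 had 12 of 45 and 8 of 52 peaks in KD alone, against 31.7% and 18.6%, and 2 of 37 and 9 of 52 in WT alone, against 6.42% and 13.6%. For SMC1A, 8 of 43 and 20 of 70 were in KD alone, against 28.6% and 29.7%, and 5 of 41 and 18 of 77 in WT alone, against 19.1% and 25.8%. CTCF had 5 of 51 and 18 of 79 in WT alone, against 12.3% and 16.9%, and 0 of 48 and 6 of 65 in KD alone, against 15.1% and 12.1%. Of these 16 shares, 12 lay under the background of their list. The other 4 were STAG1 lost in replicate 2 at 17.3%, CTCF lost in replicate 2 at 22.8%, STAG2 gained in replicate 1 at 10.5% and STAG2 gained in replicate 2 at 12.1%.

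**Figure D5:**
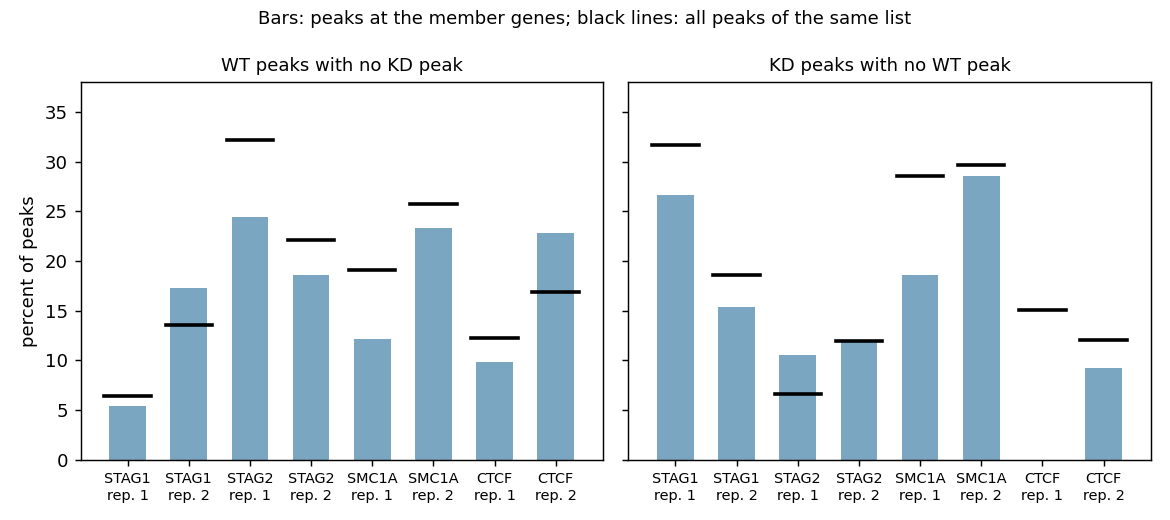
Percent of peaks without an overlapping peak in the other condition (y axis) for each antibody and replicate (x axis), with WT peaks that had no KD peak on the left and KD peaks that had no WT peak on the right. Bars are the peaks at the 10 genes and black lines all peaks of the same list; the bars stand under the lines except for STAG1 and CTCF lost in replicate 2 and STAG2 gained in both replicates, where in replicate 2 bar and line are nearly level.

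Only 5 sites lost or gained a peak of 1 antibody in both replicates. STAG2 was lost at 2 of the 58 sites at which it had a peak, against 2.71% of such sites in the genome, and gained at 0, against 0.279%. Both lost sites lie in STAG1, the gene of its paralogue. In intron 28 (chr3:136070314-136071480), at the last sequence printed above, STAG2 had a fold enrichment of 4.77 and 4.25 in WT and no peak in KD. STAG1 stayed in all 4 lists there and its fold enrichment went from 5.12 to 8.33 and from 4.60 to 5.38, and CTCF stayed in all 4. In intron 1 (chr3:136452970-136453828) STAG2 had 3.18 and 3.08 in WT, there was no STAG1 peak in any list, and CTCF went from 15.6 to 8.27 and from 13.1 to 7.51.

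STAG1 was lost in both replicates at 1 of 53 sites, the weak promoter peak of SMC3 described above, against 0.675% of its sites in the genome, and gained at 0, against 3.75%. SMC1A was gained at 1 of 82, against 2.27%, and lost at 0, against 1.10%. The gain lies in intron 20 of STAG2 (chrX:123197840-123198470), with fold enrichments of 5.22 and 5.34 in KD, no STAG1 or CTCF peak in any list and 1 STAG2 peak, in KD replicate 2. CTCF was lost at 1 of 79, against 1.75%, and gained at 0, against 1.08%. That loss lies in intron 1 of PDS5B (chr13:33222183-33222436), where CTCF had 4.84 and 6.46 in WT and no other antibody had a peak.

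The number of peaks over the 10 genes was set beside that of the whole lists. WT and KD had 37 and 45 STAG1 peaks in replicate 1 and 52 each in replicate 2. STAG2 had 45 and 38, then 59 and 58, SMC1A 41 and 43, then 77 and 70, and CTCF 51 and 48, then 79 and 65. As log2 ratios of KD to WT, STAG1 had 0.28 and 0 at the members against 0.43 and 0.09 over all peaks. STAG2 had -0.24 and -0.02 against -0.43 and -0.16. SMC1A had 0.07 and -0.14 against 0.15 and 0.02, and CTCF -0.09 and -0.28 against 0.04 and -0.08. In 40 exact permutation tests, 1 for each gene and antibody, p ranged from 0.333 to 1 and the lowest Benjamini-Hochberg adjusted p was 1. SMC1A at STAG1 had 11 and 16 peaks in WT against 6 and 9 in KD, which did not overlap (exact permutation test, p = 0.333), but several peaks can lie in 1 site. By site the counts were 5 and 5 in replicate 1 and 11 and 9 in replicate 2, and the promoter site alone held 4 WT peaks and 1 KD peak in replicate 1. SMC1A at the CTCF gene went the other way without overlap, with 2 and 2 peaks in WT against 3 and 4 in KD (exact permutation test, p = 0.333). The share of coding genes whose SMC1A counts do not overlap was not computed. STAG2 at STAG1 went from 11 to 5 and from 13 to 11 peaks, or from 9 to 4 and from 10 to 8 sites. On the STAG2 gene the STAG1 antibody gave 8 and 15 peaks in replicate 1 and 17 and 17 in replicate 2. By site these were 8 and 11, then 15 and 13, and the promoter site held 1 of the WT peaks and 5 of the KD peaks in replicate 1. Of the peaks, 5 and 9, then 8 and 7, lay before the end of the main transcript.

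Within the gene bounds 96 of 630 summits lay in exons of any annotated transcript. This was 11.1 to 25% by list with a median of 15.4%, against 7.07% of the summed length of the genes. A site adds a summit for each peak in each list that holds it, so the summits are not independent. The share over all coding genes was not computed, so whether that of the members is unusual was not tested. RAD21 gave 28 of its 30 summits, SMC3 20 of 23 and PDS5A 15 of 20, while NIPBL gave 1 of 73, PDS5B 0 of 63 and CTCF 0 of 28. The windows of RAD21, SMC3 and PDS5A held 7, 11 and 4 sites. Exons of any transcript make up 49.9% of RAD21 and 40.4% of SMC3, so the share over all 10 genes does not describe these. A summit counted here can lie in an intron of the main transcript, by which the sites above are named. Of the 96, 43 lay within 1 kb of the main start.

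Other genes of the pathway were described the same way. Of 14 genes for loading, acetylation, protection and release of cohesin, 5 promoters had a peak in all 16 lists: MAU2, the partner of NIPBL, ESCO1, an acetyltransferase for SMC3, SGO2, a protector of centromeric cohesin, ESPL1, the separase that cleaves RAD21, and PLK1, a mitotic kinase. The acetyltransferase ESCO2 had peaks in 6 lists, and PTTG1, which encodes securin, in 1. Of the 5 genes for the meiotic subunits and the germline paralogue of CTCF, 0 were in all 16 lists, and REC8 had no peak in any. Condensin and the SMC5/6 complex had 4 of 14, NCAPG2, NCAPH2, NSMCE2 and NSMCE4A. As shares these were 35.7, 0 and 28.6%, against 23.1% of all coding genes. Presence in all 16 lists did not mean a strong peak: SGO2 had mean percentiles from 15.5 with CTCF to 38.3 with SMC1A. The median of the mean CTCF percentile was 86.4 for the 10 members, 33.4, 36.6 and 25.4 for these lists and 42.5 for all coding genes, taken over promoters with a CTCF peak. Among 6 melanocyte genes (MITF, SOX10, PMEL, TYR, MLANA and DCT) the promoter of MITF had a peak in all 16 lists, which does not measure expression and so checks nothing about the identity of the line.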

How the data were processed

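Peak lists of the 16 ChIP-seq libraries were used as deposited. For replicate 1 the labels name Bowtie2 and MACS2, and for replicate 2 CASAVA 1.4, BWA, SAMtools, Picard, MACS2 and deepTools, all on hg19. Peaks were called by the authors against input, per library. The deposited lists give a score, the fold enrichment at the summit as a linear ratio, and −log10 p-values and q-values. Replicate 1 lists were limited by the authors to −log10 q of at least 2 and replicate 2 lists to −log10 p of at least 2. Read depth was not recovered from the lists here, and peak numbers per list stand in for it.

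Coordinates were set against the GENCODE 44 annotation lifted to hg19, and no peak ran past the end of a chromosome (0 peaks). Peaks outside chromosomes 1 to 22, X and Y were left out. The main start is that of the APPRIS principal transcript with the longest coding sequence. Peaks were lost or gained where they did not overlap by at least 1 bp within a replicate, and percentiles rank −log10 p within a list. Sites named are those of all 16 lists away from the promoter, those changed in both replicates, and the strongest of a member; the site 73.4 kb into STAG2 was added for its sequence. Members and gene lists were chosen with earlier results of these data known. Nothing in the labels says that replicates came from separate cultures, so the spread may be technical. Same-numbered samples share a protocol, which pairs them within a replicate. Exact permutation tests (scipy 1.17.1) were two-sided. Functions were tested on simulated lists. Python 3.11.15 and pysam 0.24.0 were used. No columns of the authors' own comparisons were present, and the alternatives tried concern thresholds, overlap, windows, list length and replicates.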

Additional observations from a re-analysis of the deposited data

How the results depend on the processing

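Of 127 alternative values for 19 results, 98 stayed within the spread between replicates or within 1.5 times the count. For peak numbers and lost or gained shares, leaving out 1 of 2 replicates cannot exceed that spread. The replicate block repeats the main value. Both kinds stayed within the spread by construction, so the tally overstates how stable the results are. The bounds of the main transcript, chosen after seeing the data, gave 0.080, -0.18, -0.10 and -0.18 for the peak numbers of STAG1, STAG2, SMC1A and CTCF. With equal numbers of peaks (58521 per list) the mean log2 ratio of KD to WT peak numbers moved from 0.14 to -0.061 for STAG1 and from -0.13 to 0.097 for STAG2, so the sign of each rests on the lengths of the lists. The same setting gave lost shares of 6.88% for STAG2 and 4.80% for SMC1A, gained shares of 4.17%, 13.2% and 10.9% for STAG1, STAG2 and SMC1A, and 1 and 4 promoters higher in both replicates for STAG1 and STAG2. At −log10 q of at least 5 the SMC1A ratio was 0.11 (-0.03 as reported), lost shares were 2.703% for STAG1, 13.8% for STAG2 and 8.05% for SMC1A, and gained shares 12.5% for STAG1 and 16.2% for SMC1A. Among the strongest 50% of peaks, 0% of STAG1, STAG2 and CTCF peaks and 1.32% of SMC1A peaks were lost, and 1.67%, 0% and 4.15% of STAG1, STAG2 and SMC1A peaks gained. Gene bounds alone gave 13.6% gained for STAG2, and promoters within 500 bp 1 for SMC1A. Without 1 replicate, promoters higher in KD numbered 4 to 5 for STAG1, 2 to 7 for STAG2, 3 to 4 for SMC1A and 2 to 6 for CTCF. With a replicate block (log2 ratios paired within a replicate) the values were 0.14, -0.13, -0.03 and -0.18 for STAG1, STAG2, SMC1A and CTCF, with exact sign-flip p = 1, 0.5, 1 and 0.5, where 0.5 is the smallest that 2 pairs allow. The causes were not tested. With 2 lists per group no test could pass 0.05, peaks near the threshold decide most calls of loss and gain, and the core motif searched misses many CTCF sites.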
